A study of Mus musculus with 6 samples.

Results

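Of the 19938 genes that had a probe set of their own on these arrays, 10 immediate early and AP-1 genes are described here. They were taken by their gene symbols, and earlier results of these data were known when the set was drawn up: Fos and Fosb (FOS family), Jun, Junb and Jund (JUN family), Egr1 and Klf6 (zinc finger factors), Nr4a1 (an orphan nuclear receptor), Atf3 (a stress-induced bZIP factor) and Ier2 (a small early response protein). Each had 1 probe set with exactly 1 gene symbol, and all 10 were bright enough to be tested with the 13956 genes that entered the fit. Total RNA had been taken from 3 wild type and 3 MYB knockdown mice, all of them C57BL6 males aged 4 weeks, with 1 Affymetrix array per mouse. The cells were a bone marrow fraction positive for Kit and CD11b and low for lineage markers, named K11bL in the labels, and the series title calls these cells myeloproliferative. The labels do not say how Myb was lowered, in which cells it was lowered, or which lineage markers were stained. Values are log2 signals, so a difference of 1 is a doubling. Differences are knockdown minus wild type, each ± its standard error (SE) from a limma fit across all genes, with n = 3 mice per group, and a gene is said to have risen or fallen only where its adjusted p was under 0.05.

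Immediate early genes are switched on within minutes of a stimulus by factors already present in the cell, before any new protein is made. Growth factor receptors and cytokine receptors act on them through MAP kinases, which activate SRF with its ETS partners, and CREB and ATF factors. FOS proteins pair with JUN proteins through leucine zippers to form AP-1, which binds DNA, whereas JUN proteins can also pair with each other; JUNB and JUND often oppose JUN in growth control. In myeloid cells these factors take part in monocyte and macrophage differentiation and in the response to cytokines and bacterial products. NR4A1 and JUNB are also known as restraints on myeloid proliferation in mice. The transcripts are short-lived, and the handling of living cells during dissociation and sorting is known to induce many of them.

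The sorted cells carried the genes of their gate. Kit lay between 10.38 and 10.58 in wild type and between 10.21 and 10.24 in knockdown, and Itgam, which encodes CD11b, between 9.81 and 9.90 and between 9.07 and 9.85. Neither passed the test (adjusted p = 0.06 and 0.202). Myb fell by 0.30 ± 0.06 (adjusted p = 0.0196), and its log2 value was 11.47, 11.46 and 11.46 in wild type and 11.26, 11.08 and 11.14 in knockdown. Its adjusted p was 0.0963, 0.09 and 0.0928 without wild type mouse 1, 2 or 3 and 0.0777 without knockdown mouse 2. It was 0.074 with each array centred on the median of all its probe sets and 0.0662 by eBayes with no trend. Knockdown mouse 3 stood apart from the other arrays: its correlation over all probe sets was 0.977 and 0.984 with the other 2 knockdown mice and 0.971 to 0.974 with the wild type mice, while the wild type arrays correlated at 0.993 to 0.995 with each other. Values are therefore also given without it.

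Promoters of 8 of the 10 genes, all but Egr1 and Ier2, were found in the RefSeq sequences of build GRCm38.p6. Each was a window from 250 bases before to 50 bases after the start of the transcript. Of the motifs searched on both strands, the AP-1 motif TGANTCA, the full cAMP response element TGACGTCA and the CArG box of SRF were in 0 of the 8 windows, against 7.81%, 1.79% and 1.63% of all 32851 windows. Only exact matches inside the windows were counted, and sites further from the start were not searched. The EGR motif GCGNGGGCG was in the windows of Fosb and Nr4a1 (5.55% of all windows), and the MYB motif TAACNG in that of Jund (23.3%). The core of the cAMP response element, TGACG, was in 5 of the 8, those of Fos, Fosb, Junb, Nr4a1 and Atf3, against 20.8% of all windows. A related form, TGCGTCA, occurred 4 times in the window of Nr4a1, 1 time in that of Fosb, and in 2.12% of all windows; no other window of the 32851 had 4 copies. The last 2 motifs, which overlap each other, were added after the windows had been seen. The 250 bases before the start are shown for Nr4a1, the member that passed the test, and for the FOS family genes, whose windows share this core. Capitals mark the matches of these motifs on either strand. They lie at chr15:101266596-101266845 on the plus strand for Nr4a1, at chr7:19310046-19310295 on the minus strand for Fosb and at chr12:85473640-85473889 on the plus strand for Fos, all written in the direction of transcription.
Nr4a1: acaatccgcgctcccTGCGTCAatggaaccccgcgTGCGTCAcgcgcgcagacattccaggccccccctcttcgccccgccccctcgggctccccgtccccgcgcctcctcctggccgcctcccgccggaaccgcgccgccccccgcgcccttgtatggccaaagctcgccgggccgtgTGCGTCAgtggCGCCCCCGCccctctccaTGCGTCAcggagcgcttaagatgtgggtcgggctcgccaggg
Fosb: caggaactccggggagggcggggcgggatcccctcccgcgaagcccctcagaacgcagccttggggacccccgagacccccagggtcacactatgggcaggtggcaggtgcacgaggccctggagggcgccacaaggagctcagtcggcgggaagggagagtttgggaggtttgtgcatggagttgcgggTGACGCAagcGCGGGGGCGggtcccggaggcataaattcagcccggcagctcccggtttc
Fos: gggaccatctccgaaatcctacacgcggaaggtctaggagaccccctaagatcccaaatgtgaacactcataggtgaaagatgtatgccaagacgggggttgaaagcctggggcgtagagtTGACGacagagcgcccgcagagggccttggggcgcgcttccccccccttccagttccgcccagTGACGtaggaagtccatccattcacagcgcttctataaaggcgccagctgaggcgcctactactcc
In Nr4a1 the copies of TGCGTCA begin at positions -235, -215, -71 and -42 from the start of the transcript, the last 2 on either side of the EGR match. In Fos the TGACG matches begin at positions -129 and -66. A match of letters is a description of the window and not a site shown to be used.

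Nr4a1 was higher in every knockdown mouse than in any wild type mouse and was the only member that passed the test. NR4A1, also called NUR77, is a nuclear receptor that acts without a known natural ligand. Its log2 signal was 6.39, 6.40 and 6.31 in wild type mice 1, 2 and 3 and 6.96, 6.75 and 6.94 in knockdown mice 1, 2 and 3. It rose by 0.52 ± 0.10 (1.43-fold, adjusted p = 0.0138), a difference above that of 95.5% of all genes tested. Its spread between mice of a group was small, with a within-group standard deviation (SD) of 0.0882, where the median of all genes tested was 0.144 (0.0942 and 0.0878 without knockdown mouse 3). The rise was 0.49 without knockdown mouse 3 (adjusted p = 0.00546). Without wild type mouse 1, 2 or 3 it was 0.53, 0.54 and 0.49, with adjusted p = 0.0686, 0.0632 and 0.0845, in fits of 5 arrays.

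Atf3 also separated the groups, by less. ATF3 is a bZIP protein that is induced by many stresses and that can repress its targets. Its log2 signal was 5.77, 5.84 and 5.80 in wild type and 6.16, 5.98 and 5.98 in knockdown, with no overlap. The difference was 0.23 ± 0.09 and did not pass the test (adjusted p = 0.159, 95% interval 0.02 to 0.45). Without knockdown mouse 3 it was 0.27 (adjusted p = 0.0647). The wild type SD of 0.0326 was of the same order as that of Jund (0.0352), Klf6 (0.039) and Nr4a1 (0.048), while the other members had wild type SDs of 0.152 to 0.27.

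All JUN family genes had higher means in knockdown, and in Jund the groups did not overlap. Jund, the family member that most cells make at a steady level, was nearly the same in all wild type mice, at 7.69, 7.74 and 7.67, and lay at 7.97, 7.94 and 8.54 in knockdown. The difference was 0.45 ± 0.16 (adjusted p = 0.123, 95% interval 0.08 to 0.82), and it was 0.25 ± 0.07 without knockdown mouse 3, where it passed the test (adjusted p = 0.0284). The mean of the first 2 knockdown mice was thus 0.25 above the wild type mean, and mouse 3 was 0.84 above it. Junb, which is prominent in myeloid cells, had values of 7.15, 6.72 and 6.67 in wild type and 7.02, 7.27 and 7.60 in knockdown. Wild type mouse 1 overlapped the knockdown values, and the difference was 0.45 ± 0.18 (adjusted p = 0.156, 95% interval 0.04 to 0.87), or 0.30 without knockdown mouse 3. Jun itself had the narrowest difference of the family. Its values were 9.90, 9.70 and 9.37 in wild type and 9.78, 9.81 and 9.95 in knockdown, so that wild type mouse 1 was above 2 of the knockdown mice. The difference was 0.19 ± 0.14 (adjusted p = 0.468, 95% interval -0.13 to 0.50), and it was 0.04 without wild type mouse 3.

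The FOS family genes among the members, Fos and Fosb, whose products need a JUN partner, overlapped between the groups. Fosb had values of 7.12, 6.94 and 6.60 in wild type and 7.11, 7.24 and 7.83 in knockdown. Knockdown mouse 1 lay at the level of wild type mouse 1, and knockdown mouse 3 was the highest. The difference was 0.50 ± 0.21 (adjusted p = 0.171, 95% interval 0.03 to 0.98), and 0.28 without knockdown mouse 3. Fos, the founding member and a classic marker of recent stimulation, had values of 7.37, 7.14 and 6.97 in wild type and 7.63, 7.09 and 7.71 in knockdown. Knockdown mouse 2 lay within the wild type values and the other 2 above them. The difference was 0.32 ± 0.18 (adjusted p = 0.331, 95% interval -0.10 to 0.73), 0.51 without knockdown mouse 2 and 0.20 without knockdown mouse 3.

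Egr1 was high in a single knockdown mouse. EGR1 is a zinc finger factor that is induced through SRF and takes part in monocyte differentiation and in the quiescence of stem cells. Its log2 signal was 6.86, 6.81 and 6.50 in wild type and 6.77, 6.74 and 8.11 in knockdown, so knockdown mice 1 and 2 lay within the wild type range and mouse 3 was 1.38 above the wild type mean. The difference was 0.48 ± 0.33 (adjusted p = 0.436, 95% interval -0.28 to 1.24), and 0.03 without knockdown mouse 3 (adjusted p = 0.875). The mean difference of Egr1 thus rested on knockdown mouse 3.

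The remaining pair had lower means in knockdown, and neither passed the test. Klf6, a zinc finger factor of the Krüppel-like family that is abundant in myeloid cells, was even in wild type at 8.47, 8.46 and 8.39 and spread in knockdown at 8.61, 8.12 and 7.99. Knockdown mouse 1 was above all wild type mice and the other 2 below them, and the difference was -0.20 ± 0.16 (adjusted p = 0.503, 95% interval -0.56 to 0.16). It was -0.38 without knockdown mouse 1 (adjusted p = 0.0703) and -0.08 without knockdown mouse 3 (adjusted p = 0.694). Ier2, a small nuclear protein induced by growth factors, had values of 7.72, 7.44 and 7.50 in wild type and 7.51, 7.47 and 7.41 in knockdown. The difference was -0.09 ± 0.11 (adjusted p = 0.696, 95% interval -0.34 to 0.16), and the groups overlapped. It was -0.06 without knockdown mouse 3 (adjusted p = 0.674) and -0.0038 without wild type mouse 1 (adjusted p = 0.995).

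**Figure D1:**
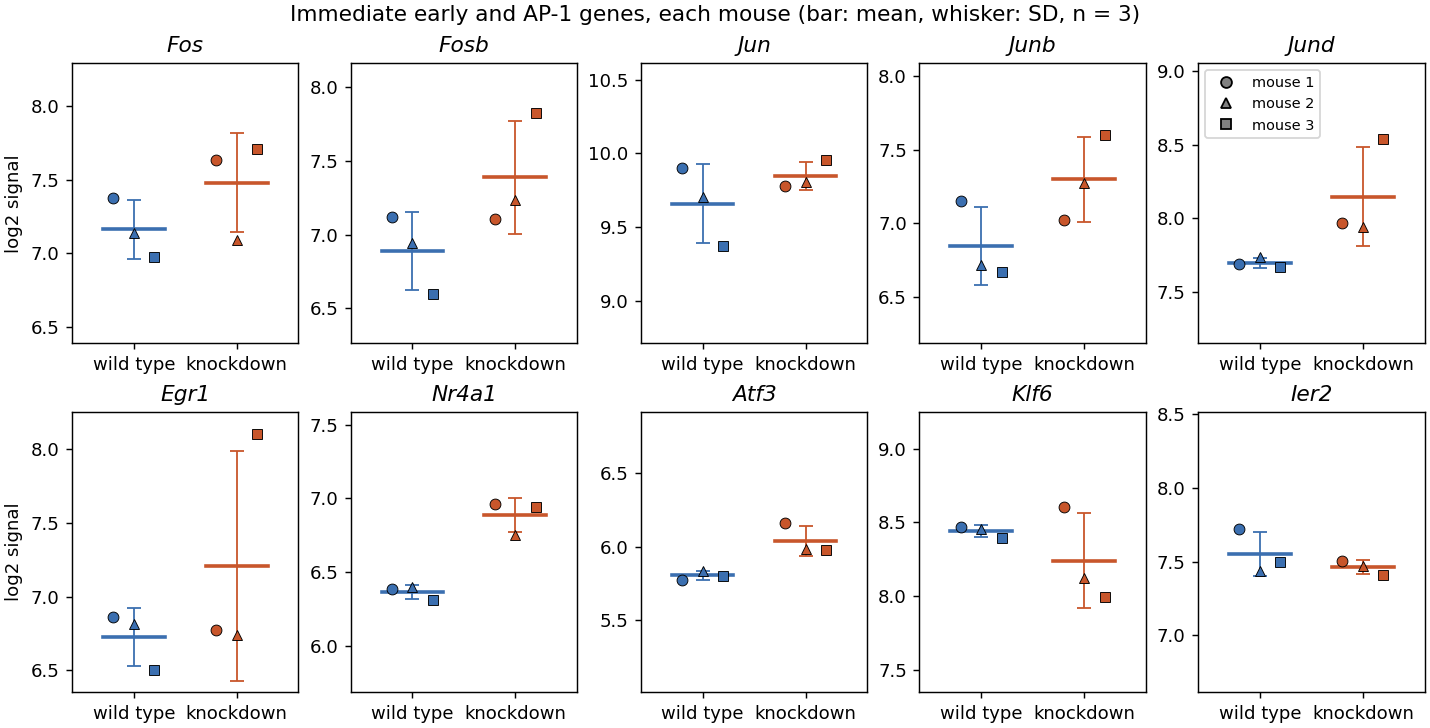
Log2 signal of each of the 10 genes (y axis, the same span of log2 units in every panel) in wild type (blue) and knockdown (orange) mice; symbols mark mouse 1, 2 and 3 of each group, which are different mice, bars the mean and whiskers the SD of 3 mice. The groups do not overlap for Nr4a1, Atf3 and Jund, and knockdown mouse 3 is the highest for Fos, Fosb, Jun, Junb, Jund and Egr1.

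Counted together, 8 of the 10 genes had a higher mean in knockdown and 2 a lower one, with a median difference of 0.38, while the median of all genes tested was 0.02. Of all genes tested, 53.6% had a higher mean in knockdown. By limma 1 member rose and 0 fell, that is 1 of 10 called where 11.6% of all genes tested were called (6.12% higher and 5.48% lower in knockdown). The share of called members was therefore close to the background. At an unadjusted p under 0.05, 5 members were higher (Nr4a1, Jund, Junb, Atf3 and Fosb) and 0 lower, against 15% and 10.6% of all genes tested. In 3 of the 10, all of them higher in knockdown, the groups did not overlap; this was so for 34.3% of all genes tested, and for 19.9% with the knockdown higher. Without knockdown mouse 3, 2 members rose, Nr4a1 and Jund, against 17.2% of all genes, and the median difference of the members was 0.23. The count was 0 with any of the wild type mice left out. Fewer genes were called in general there: over all genes tested, 296 rose without wild type mouse 1, against 854 with all arrays. With array weights, which gave knockdown mouse 3 a weight of 0.13 and wild type mouse 3 one of 5.12, 4 members rose (Nr4a1, Jund, Junb and Fosb), against 16.8% of all genes. The estimate of these weights stopped before it converged, so calls made with them are less certain.

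**Figure D2:**
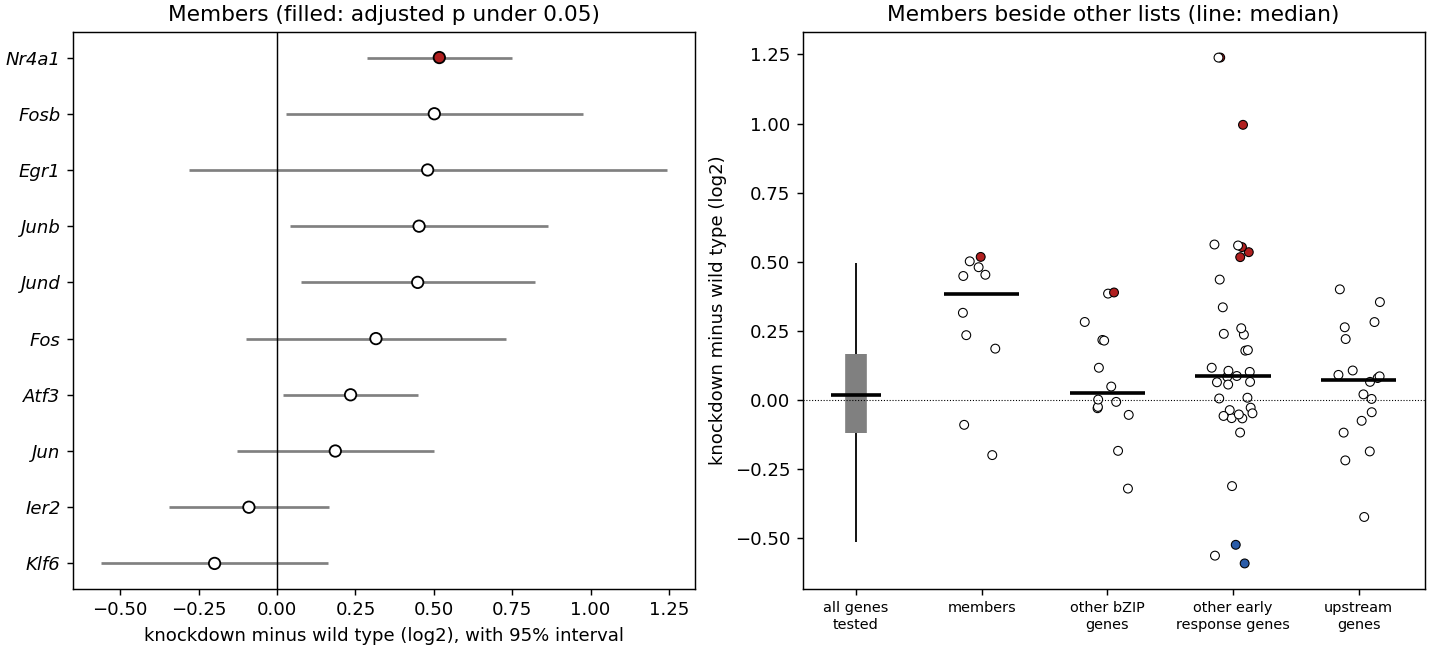
Left, difference of each member (x axis, knockdown minus wild type in log2 units) with its 95% interval from the fit; Nr4a1, filled, was the only one with an adjusted p under 0.05. Right, differences (y axis) of the members and of the other lists, 1 point per gene tested, red where it rose and blue where it fell, with the median as a line, beside all genes tested (line, median 0.02; grey bar, middle 50%; thin line, 5th to 95th percentile).

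Most members shared their highest and their lowest mouse. Fos, Fosb, Jun, Junb, Jund and Egr1, the AP-1 genes with Egr1, were highest in knockdown mouse 3 and lowest in wild type mouse 3. This pattern, taken from these same values, was seen for 3.41% of all genes tested. The order of the other mice was not the same in all 6 genes. Knockdown mouse 3 was the highest array for 6 members and for 33.4% of all genes tested. Wild type mouse 3 was the lowest of the wild type mice for 8 members, against 25.3% of all genes, and wild type mouse 1 the highest for 7, against 32.2%. Taken over the members, the median distance from the wild type mean was 0.15, 0.03 and -0.11 in wild type mice 1, 2 and 3 and 0.20, 0.16 and 0.56 in knockdown mice 1, 2 and 3. Wild type mouse 1 thus lay about level with knockdown mice 1 and 2, and knockdown mouse 3 above all others. The part that the standing apart of knockdown mouse 3 had in this pattern was not tested, and the sources used here give no sort time, scan date or other batch.

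**Figure D3:**
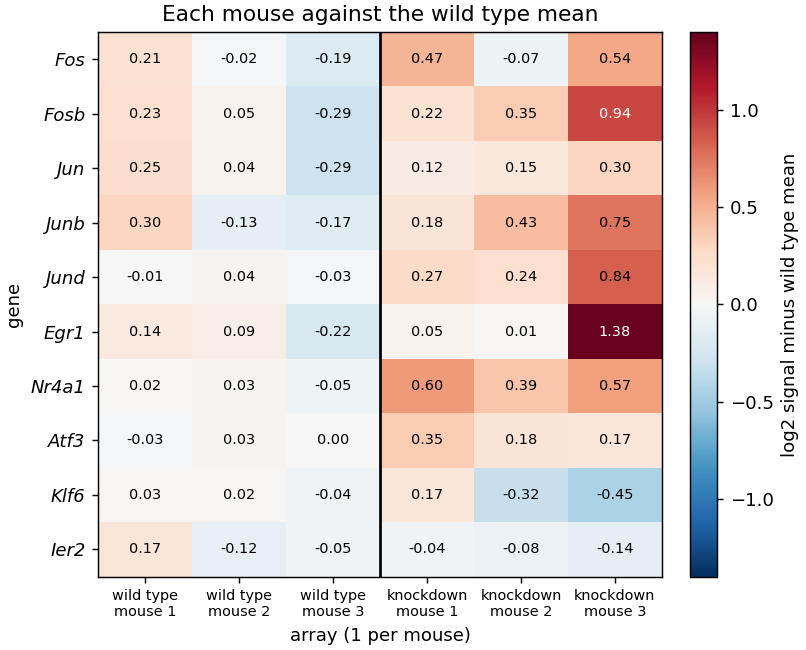
Log2 signal of each gene (rows) in each mouse (columns) minus the wild type mean of that gene, as a colour and as a number, with red above and blue below the wild type mean. Knockdown mouse 3 has the largest values for Egr1 (1.38), Fosb (0.94), Jund (0.84) and Junb (0.75), while Nr4a1 is 0.39 to 0.60 above the wild type mean in every knockdown mouse.

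Most members varied more between mice of a group than the median gene. Without knockdown mouse 3 this no longer held for Jund, while the spread of Egr1 was smaller but still above the median. The within-group SD was 0.568 for Egr1, larger than in 99.5% of genes tested, 0.33 for Fosb (95.1%), 0.277 for Fos (90.8%) and 0.276 for Junb (90.6%). It was 0.24 for Jund, 0.231 for Klf6 and 0.203 for Jun, also above the median of 0.144. The members with the least spread were Ier2 (0.113), Nr4a1 (0.0882) and Atf3 (0.0762). Without knockdown mouse 3 the SD was 0.159 for Egr1 and 0.0309 for Jund, where the median of all genes was 0.0878, so that 87.0% of genes were at or below Egr1 and 5.46% at or below Jund. The SD of Fos, Fosb, Jun, Junb and Klf6 was then 0.276, 0.223, 0.221, 0.238 and 0.201, with 94.3% of genes or more at or below each. That of Nr4a1 was then 0.0942, close to that median. Nr4a1 and Fosb thus had like mean differences, 0.52 and 0.50, and standard errors that differed, 0.10 and 0.21. A rise of Fos by up to 0.73 or of Egr1 by up to 1.24 lies within the 95% intervals, so these arrays do not show that either gene was unchanged.

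**Figure D4:**
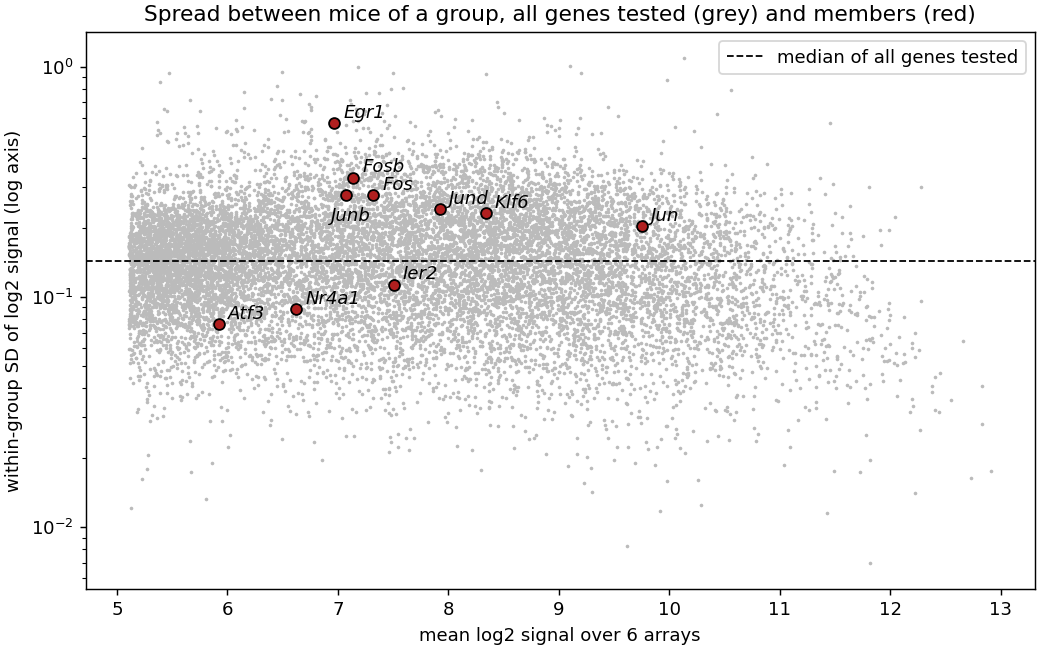
Within-group SD of the log2 signal (y axis, log scale, 3 mice per group) against the mean log2 signal over the 6 arrays (x axis) for the 13956 genes tested (grey) and the 10 members (red), with the median of all genes as a dashed line. Egr1, Fosb, Fos and Junb have a larger SD than 90.6% of genes or more, and Nr4a1, Atf3 and Ier2 below the median.

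Among other bZIP genes, which pair with AP-1 proteins or bind like sites, Mafk alone passed the test. Of 15 listed genes 14 were tested, and 1 rose and 0 fell, against 6.12% and 5.48% of all genes, with a median difference of 0.03. At an unadjusted p under 0.05, 3 were higher and 1 lower, against 15% and 10.6% of all genes. Mafk, a small MAF protein that lacks an activation domain, had values of 7.40, 7.40 and 7.35 in wild type and 7.71, 7.85 and 7.75 in knockdown and rose by 0.39 ± 0.10 (adjusted p = 0.0363). Its adjusted p was 0.141, 0.137 and 0.174 without wild type mouse 1, 2 or 3 and 0.135 without knockdown mouse 2. It was 0.0847 with the replicate number as a block and 0.0514 with no filter on dim genes. Fosl2, a FOS-like gene, differed by 0.39 with adjusted p = 0.146. Its groups did not overlap, which was so for 34.3% of all genes tested. Leaving out knockdown mouse 3, 3 of the 14 rose and 2 fell, against 17.2% and 10% of all genes.

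Among 40 other immediate early and early response genes, 37 were tested, of which 5 rose and 2 fell, with a median difference of 0.09. The count of 7 called among 37 stands beside 11.6% of all genes. Zfp36l1 and Zfp36 encode relatives that bind AU-rich elements and speed the decay of early response mRNAs. Zfp36l1 had values of 6.84, 7.00 and 7.22 in wild type and 7.84, 7.93 and 9.01 in knockdown and rose by 1.24 ± 0.29 (2.36-fold, adjusted p = 0.0278). Zfp36 had values of 8.09, 7.77 and 7.85 in wild type and 8.69, 8.43 and 9.57 in knockdown and rose by 1.00 ± 0.26 (1.99-fold, adjusted p = 0.0453). Both were higher in every knockdown mouse than in any wild type mouse, and, as for the AP-1 genes, knockdown mouse 3 was the highest; without it the differences were 0.86 and 0.66, and both passed the test (adjusted p = 0.000713 and 0.0028).

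The other calls in this list went in both directions. Ppp1r15a (GADD34), which restores translation after stress, rose by 0.55 ± 0.10 (adjusted p = 0.00786). Gadd45g, a stress sensor that acts on MAP kinases, rose by 0.53 ± 0.11 (adjusted p = 0.0168). Ier5, a partner of heat shock factor, rose by 0.52 ± 0.10 (adjusted p = 0.0125). In these 3 genes, as in Nr4a1, the groups did not overlap. Of the relatives of Gadd45g, Gadd45a differed by 0.07 (adjusted p = 0.789) and Gadd45b by -0.56 (adjusted p = 0.0988). Rhob, a small GTPase, fell by 0.59 ± 0.14 (adjusted p = 0.0345), and Sgk1, a kinase induced by serum and glucocorticoids, fell by 0.52 ± 0.12 (adjusted p = 0.0313). Ier5 is also a relative of Ier2, and the related Ier5l differed by -0.05 (adjusted p = 0.848). Among relatives of Egr1, Egr2, Egr3 and Egr4 differed by -0.03, 0.09 and -0.07 (adjusted p = 0.915, 0.744 and 0.889). Of the listed relatives of Klf6, Klf2, Klf4 and Klf10 differed by 0.12, -0.07 and 0.08 (adjusted p = 0.646, 0.866 and 0.723). Nr4a2 differed by 0.18 (adjusted p = 0.478). Nr4a3, the other relative of Nr4a1, was too dim to be tested, with values of 4.49, 4.55 and 4.52 in wild type and 4.56, 4.65 and 4.56 in knockdown.

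Without knockdown mouse 3, 8 of the 37 genes rose and 3 fell, while 27.2% of all genes were called. With any other array left out fewer than 7 were called. Leaving out wild type mouse 1, 2 or 3 gave 2, 1 and 0 that rose and 0, 1 and 0 that fell. Over all genes tested, 296 rose without wild type mouse 1, against 854 with all arrays. Of the genes named, Ppp1r15a had an adjusted p of 0.0568 and 0.0544 with wild type mouse 2 or 3 left out, and Ier5 one of 0.0761 and 0.0781 with wild type mouse 1 or 3 left out. In the fits that lacked wild type mouse 1, 2 or 3, it was 0.0814, 0.0852 and 0.0689 for Gadd45g, 0.124, 0.11 and 0.0622 for Zfp36l1 and 0.113, 0.171 and 0.14 for Zfp36. It was 0.0746 for Gadd45g lacking knockdown mouse 2 and 0.0527 for Zfp36 lacking knockdown mouse 1. Sgk1 missed the threshold lacking each wild type mouse in turn (0.135, 0.0745 and 0.0932) or knockdown mouse 2 (0.0994). Rhob missed it lacking wild type mouse 1 (0.133), wild type mouse 3 (0.124), the first knockdown mouse (0.0584) or the second (0.102). Median centring over genes gave 0.0501 for Zfp36 and 0.0555 for Rhob, and centring on all probe sets gave 0.0551 for Sgk1 and 0.059 for Rhob.

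Of the best-known early genes outside the members, Myc, the growth factor-induced regulator of cell growth, was higher in all knockdown mice. Its values were 11.19, 11.23 and 11.33 in wild type and 11.41, 11.48 and 11.57 in knockdown, a difference of 0.24 ± 0.07 (adjusted p = 0.0586); it passed the test without knockdown mouse 3 (0.0329), with the filter at 50% (0.0497), with array weights (0.0435) and with centring on all probe sets (0.0239). Dusp1, a phosphatase of MAP kinases that is itself an immediate early gene, had values of 8.81, 8.61 and 8.24 in wild type and 9.22, 8.82 and 8.92 in knockdown. It differed by 0.44 ± 0.17 (adjusted p = 0.14). Its wild type mice stood in the same order as in Fos, Fosb, Jun, Junb and Egr1, with mouse 1 highest and mouse 3 lowest. Over all genes tested, mouse 1 was the highest wild type mouse for 32.2% and mouse 3 the lowest for 25.3%. The share of genes with this whole order was not counted.

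The kinases and factors that act on immediate early genes did not pass the test in either direction. Of 22 listed, 18 had a probe set of their own and were tested; limma called 0 higher and 0 lower, with 3 higher and 0 lower at an unadjusted p under 0.05 (15% and 10.6% of all genes), and a median difference of 0.07. Srf, the factor of the serum response element, had values of 8.72, 8.76 and 8.75 in wild type and 8.80, 8.88 and 9.63 in knockdown, a difference of 0.35 ± 0.20 (adjusted p = 0.33). Like Egr1 it was high in knockdown mouse 3, and without that mouse the difference was 0.09. Nab1 and Nab2, which encode co-repressors of EGR proteins, differed by 0.26 and 0.22 (adjusted p = 0.0988 and 0.293). Without knockdown mouse 3, 2 of the 18 rose, against 17.2% of all genes.

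Heat shock, chaperone and stress genes, not all of them inducible by heat, were read on the same arrays. Their mean log2 signal over 10 measured genes was 9.02, 8.88 and 8.89 in wild type and 9.11, 9.05 and 8.997 in knockdown mice 1, 2 and 3. The genes of this list went both ways: Bag3 had values of 7.10, 7.20 and 7.81 in knockdown, highest in mouse 3, whereas Hsph1 had 8.92, 8.88 and 8.08, lowest in mouse 3. Whether the pattern over the mice differs from that of the AP-1 genes was not tested. By limma 0 of 10 rose and 0 fell, with 3 higher and 1 lower at an unadjusted p under 0.05 (15% and 10.6% of all genes). Without knockdown mouse 3, 6 rose, against 17.2% of all genes. Hspa1a, a classic heat shock gene, had values of 8.39, 7.46 and 7.37 in wild type and 7.17, 7.91 and 7.44 in knockdown, with wild type mouse 1 the highest.

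Some markers of other cell types differed between the groups as well. The counts of each list stand beside 6.12% of all genes tested that rose and 5.48% that fell. Of 10 markers of mature neutrophils 5 fell, and the mean log2 signal of the 10 was 9.91 to 10.46 in wild type and 8.60 to 9.48 in knockdown. The other 5 did not pass the test and did not all go the same way. Ngp, Ly6g, Mmp9 and Retnlg differed by -0.53, -1.50, -0.54 and -0.18 (adjusted p = 0.0926, 0.141, 0.442 and 0.85). Cxcr2 was higher in knockdown, by 0.61 (adjusted p = 0.0504). Of 8 tested markers of megakaryocytes and platelets 6 rose, with mean signals of 7.46 to 7.56 and 8.75 to 8.83. Of 8 tested monocyte and macrophage markers 2 rose and 3 fell, with mean signals over 9 measured genes of 8.54 to 8.64 and 7.85 to 8.32. No marker of these 3 lists was under the lower quartile of every array, so none was at the level of the dimmest genes throughout. Of the other lists, 1 of 6 erythroid markers rose, 3 of 7 B lymphoid markers fell, and 1 of 4 T and NK markers rose and 1 fell. The part of cell makeup in the differences of the members was not tested, and in bulk RNA a change in the number of cells of a type and a change in RNA per cell cannot be told apart.

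Genes with profiles close to those of Fos, Jun and Egr1 were sought among the genes tested outside the lists, by the root mean square difference of log2 values over the 6 arrays after centring each gene, among genes whose SD over the arrays was at least that of the member divided by 2. For Fos the nearest were H3c4 (0.109), Alox12e (0.11) and Naif1 (0.125). For Jun they were 5033430I15Rik (0.0376), Rbis (0.0453) and Prdm8 (0.05). For Egr1 they were Fbrs (0.118), Iigp1 (0.128) and Gm12185 (0.147), each of them high in knockdown mouse 3 and even in the other mice: Fbrs, for example, was at 8.34 to 8.47 in 5 mice and at 9.87 in knockdown mouse 3. With 6 arrays such likeness is a description of these mice.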

How the data were processed

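The values are log2 signals as the authors deposited them, with 1 value for each probe set on each array. The submitters' processing notes name Affymetrix Expression Console and limma; which step each did, and how arrays were normalized, is not given in the sources used here. Per the labels' protocols, cells were sorted by FACS and Trizol was used for the RNA. Probe sets were named through the platform annotation: 21789 of 35556 had 1 symbol, 1621 had several and 12146 had none there. Where a gene had several probe sets, the brightest by its mean over the 6 arrays stood for it. Genes in the lowest 30% by that mean were left out. The fit was limma 3.58.1 in R 4.3.3 (lmFit, eBayes with a trend, no covariates), with Benjamini-Hochberg adjustment over all 13956 genes tested and a threshold of 0.05; the script was tested on simulated data. The number of arrays limits the precision.

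The members, the other lists and the rules were chosen with earlier results of these data known. The genes named are all members; of each further list those that passed the test; Myc, Dusp1 and Srf; and the 3 nearest profiles of Fos, Jun and Egr1. Relatives of members and other genes given with values (Fosl2, Egr2, Egr3, Egr4, Klf2, Klf4, Klf10, Ier5l, Gadd45a, Gadd45b, Nr4a2, Nr4a3, Nab1, Nab2, Bag3, Hsph1, Hspa1a, Ngp, Ly6g, Mmp9, Retnlg, Cxcr2, Ms4a7) were named after their values were seen. Listed symbols that matched no 1-symbol probe set were not analysed here. The alternatives run are named in the closing section. Promoter sequences are RefSeq's.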

Additional observations from a re-analysis of the deposited data

How the results depend on the processing

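Each of the 10 members kept the sign of its difference under every alternative run: quantile normalization, median centring, other filters, the mean of probe sets, eBayes without a trend or robust, array weights, the replicate number as a block, and each array left out; Atf3 was too dim for the filter at 50% and has no value there. Nr4a1 rose under all of these except without wild type mouse 1, 2 or 3. The other calls were of Jund, Junb and Fosb, with array weights (adjusted p = 0.0215, 0.0261 and 0.0318), and of Jund without knockdown mouse 3. The array weights were estimated without full convergence. The spread without knockdown mouse 3 was also chosen after seeing the data. The count of members that rose was 1, 4 with array weights and 0 to 2 with 1 array left out. For other bZIP genes it was 1 that rose, and 0 with no filter, 5 with array weights, 0 with the replicate block and 0 to 3 with 1 array left out; those that fell numbered 0, 1 with array weights and 0 to 2 with 1 array left out. Of the other early genes 5 rose, and 9 at an adjusted p of 0.1, 9 with array weights, 8 with centring on all probe sets and 0 to 8 with 1 array left out; 2 fell, and 1 after median centring over genes, 0 with centring on all probe sets and 0 to 3 with 1 array left out. Of the upstream genes 0 rose, and 1 at an adjusted p of 0.1, 2 with array weights, 1 with centring on all probe sets and 0 to 2 with 1 array left out. Over all genes 854 rose and 765 fell; 1374 rose at an adjusted p of 0.1, 2351 rose and 1561 fell with array weights, and with 1 array left out 296 to 2397 rose and 367 to 1397 fell. Centring on all probe sets, chosen after seeing the data, gave 1433 rises and 593 falls, so that 70.7% of calls were rises, against 52.7% without it, and Nr4a1 was still called. The fits with 1 array left out have fewer mice, and the cause of the other changes was not tested. The replicate numbers name different mice. Same-numbered mice of the groups deviated from their group means with correlations of 0.29, -0.19 and -0.08 over genes. With 3 mice per group these correlations cannot decide whether same-numbered mice shared a batch. With the replicate number as a block Nr4a1 rose by 0.52 (adjusted p = 0.0285). Arrays give signal and not depth, and 3 mice per group limit what could be called for genes as variable as Egr1.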
